A study of Mus musculus with 30 samples.

Results

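Hearts of C57Bl/6 mice that had received an adeno-associated virus of serotype 9 carrying Cpt1a were compared by RNA sequencing between pressure overload and sham surgery. The 8 hearts were taken by their treatment labels, 4 with transverse aortic constriction (TAC) and 4 with sham surgery, out of 30 heart samples in the series. All 8 carried the vector, so the comparison asks what overload did to heart RNA in its presence and not what the vector did. The series names the construct AAV9.cTNTN.Cpt1a and calls it cardiac-specific, and its cTNTN element is taken here as the cardiac troponin T promoter, which is active in heart muscle cells. The comparison uses as its reference 6 hearts of the same strain that received saline (PBS) in place of the vector, 3 after TAC and 3 after sham surgery. All 14 hearts were collected 8 weeks after surgery. TAC was made with a clip of 0.016 or 0.018 inch, and the labels do not say which mouse received which. Sex, age, vector dose, the interval between injection and surgery and the hour of collection are not given in the sources used here. The labels number the hearts within a group without saying more on how they were obtained, so each p-value measures the spread between these samples. The other 16 samples, floxed and Cpt1a knockout hearts, enter no comparison below except a fit of all 30 samples.

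Narrowing the aorta makes the left ventricle pump against a higher pressure. The overloaded ventricle grows, its muscle cells again use genes of the fetal heart such as skeletal actin, the slow myosin heavy chain and the natriuretic peptides, and its fibroblasts lay down matrix. Cpt1a encodes a form of carnitine palmitoyltransferase 1, the enzyme of the outer mitochondrial membrane that commits long-chain fatty acids to oxidation. The adult heart draws much of its energy from these acids and is known to shift toward glucose under lasting overload. Many of the genes concerned also follow the time of day, since the heart has its own molecular clock.

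Heart muscle markers were high in all 8 libraries. The summed level of 4 ventricular markers was 35674 to 47035 CPM, the counts of a gene relative to the library's TMM-scaled total. Of these markers Myh6 alone was at 22609.5 to 33913 CPM. Total counts ran from 16299695 to 22070373, and each pair of hearts within a group differed by more than sampling noise (chi-square per degree of freedom 6.52 to 30.4 over 12 pairs). Atrial RNA was uneven. Myl7, the atrial myosin light chain, was at 119, 911, 21.2 and 0.605 CPM in the 4 sham hearts and at 0.200, 0.115, 275 and 0.288 CPM in the 4 TAC hearts. Bmp10, a right atrial factor, was at 277.7 CPM in vector TAC heart 3 and at or below 0.122 CPM in the other 7. The saline hearts were uneven too, with Myl7 at 210, 1006 and 299 CPM after sham surgery and at 0.0585, 642 and 0.370 CPM after TAC. Bmp10 was at 527 CPM in saline sham heart 2 and at 386 CPM in saline TAC heart 2. Red cell RNA was higher with TAC, with summed haemoglobin of 638 ± 213 against 378 ± 78.3 CPM (mean ± SD, n = 4 each; exact permutation test, two-sided, p = 0.0571, 0.214 after Benjamini-Hochberg adjustment over 5 library values; the smallest p that 4 against 4 allows is 0.0286). Of 5 red cell markers, 3 were higher at an unadjusted p under 0.05. Summed adipocyte markers were at 0 to 16.6 CPM in vector sham and at 0.0999 to 0.336 CPM in vector TAC hearts. In saline hearts they were at 19.9 to 432 CPM after sham surgery, highest in heart 2, and at 0.234 to 55.8 CPM after TAC. T cell, lung epithelium and thymus markers were too low to be tested. The share of counts from mitochondrially encoded genes was 21.96 ± 1.41% with TAC and 23.5 ± 1.46% with sham (exact permutation p = 0.171, adjusted 0.286). Saline sham heart 3 stood apart from the other 13 libraries of the cohort. Its correlation with them over log CPM was 0.886 to 0.916, its ventricular marker sum was 16788 CPM, and it had 24894 genes with a count, against 21670 to 22770 in the others. The part that atrial RNA, red cell RNA and this library have in the results was not tested beyond the alternatives given below. In bulk tissue, fewer cells of a type and less RNA per cell cannot be told apart.

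Cpt1a itself did not separate the groups. It was at 88.3, 56.3, 73.2 and 67.3 CPM in the sham hearts and at 51.98, 62.6, 59.9 and 44.8 CPM in the TAC hearts, all with the vector. The means were 71.3 ± 13.4 and 54.8 ± 8.08 CPM (exact permutation test, two-sided, p = 0.0857, adjusted 0.214), and the log2 fold change was -0.38 (SE 0.20, edgeR adjusted p = 0.765). Without the vector Cpt1a was at 37.4, 50.7 and 67.96 CPM after sham surgery and at 57.1, 61.5 and 40.2 CPM after TAC. The vector and saline ranges therefore overlap, and whether reads of the vector's own copy count toward the mouse gene is not given in the sources used here.

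Noct was the only gene that passed the test between vector TAC and vector sham hearts when all 14 hearts of the cohort were fitted together (edgeR quasi-likelihood test, Benjamini-Hochberg adjusted p under 0.05, 15745 genes tested, 0.00635% of them called). At an unadjusted p under 0.05 stood 1110 genes, 7.05% of those tested, of which 534 were higher with TAC (3.39%) and 576 lower (3.66%). The number of calls differed with the hearts in the fit. A fit of the 8 vector hearts alone called 143 of 14732 genes (0.971%), 54 higher (0.367%) and 89 lower (0.604%). Leaving out saline sham heart 3, an alternative chosen after seeing the data, gave 111 calls of 15901 genes (0.698%), 47 higher (0.296%) and 64 lower (0.402%). These lists shared 89 genes, 62.2% of the first and 80.2% of the second, Noct among them. Within the fit of the 8 vector hearts the count itself moved from 25 without vector TAC heart 1 to 424 without vector TAC heart 3. It was 18 with an atrial RNA term. Below, rose and fell are kept for a gene that passed in the fit of 14 hearts, and all other genes are given by their values. Where a list count for vector hearts at an unadjusted p under 0.05 stands alone, the all-gene shares are 3.39% higher and 3.66% lower.

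Noct, which encodes nocturnin, a rhythmically expressed phosphatase of NADPH, fell with overload. The gene lies at chr3:51224447-51251644 on the plus strand of GRCm38, with no other annotated gene overlapping it. It was at 49.4, 43.8, 43.6 and 44.2 CPM in the 4 vector sham hearts and at 23.7, 23.1, 27.6 and 29.98 CPM in the 4 vector TAC hearts. Every TAC heart lay below every sham heart, and the sham hearts were close together except for the first. The means were 45.2 ± 2.75 and 26.1 ± 3.26 CPM, a log2 fold change of -0.79 (SE 0.10, edgeR adjusted p = 0.0200). The saline hearts had the same order, with 59.7, 59.3 and 59.5 CPM after sham surgery and 41.3, 40.2 and 39.5 CPM after TAC. That difference, a log2 fold change of -0.56, did not pass (edgeR adjusted p = 0.104). The difference between these changes, an interaction of -0.23 (SE 0.15), did not pass either (edgeR adjusted p = 0.694). Over all alternatives the log2 change of Noct with the vector stayed between -0.87 and -0.74, while its adjusted p ran from 3.003e-12 in DESeq2 to 0.982 with all 30 samples in the fit. In the fit of 14 hearts the call was lost on leaving out vector sham heart 1, 3 or 4 or vector TAC heart 1, 2 or 3 (adjusted p 0.0900 to 0.172) with an atrial RNA term (0.150), with the replicate block (0.225) and, in an alternative chosen after seeing the data, without vector sham heart 2 and vector TAC heart 3 together (0.0633). It was kept without vector sham heart 2 (0.0451) or vector TAC heart 4 (0.0180).

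The clock that Noct follows runs on a feedback loop. Arntl (BMAL1) pairs with Clock or Npas2 and binds E-boxes, the letters CACGTG, to drive the Per and Cry genes, which shut the pair down, and outputs such as Dbp. Sequence before the transcription start is shown for the called gene and for Per1 and Ciart, clock genes with lower means with TAC. It serves to compare their E-boxes (RefSeq, GRCm38.p6, the 250 bases before the start, 5′ to 3′ on the gene's strand, with E-boxes in capitals). Noct is at chr3:51224197-51224446 on the plus strand, Per1 at chr11:69098699-69098948 on the plus strand, before the more upstream of its 2 listed starts, and Ciart at chr3:95882229-95882478 on the minus strand.
Noct: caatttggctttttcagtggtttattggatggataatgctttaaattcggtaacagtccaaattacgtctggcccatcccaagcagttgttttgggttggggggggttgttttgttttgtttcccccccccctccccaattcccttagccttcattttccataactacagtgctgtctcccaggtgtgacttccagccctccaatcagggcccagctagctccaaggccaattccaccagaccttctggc
Per1: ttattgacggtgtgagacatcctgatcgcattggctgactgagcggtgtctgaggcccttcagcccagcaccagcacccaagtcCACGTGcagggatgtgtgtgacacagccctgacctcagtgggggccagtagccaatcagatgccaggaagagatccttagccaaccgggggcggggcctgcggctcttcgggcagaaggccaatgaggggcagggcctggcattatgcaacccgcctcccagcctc
Ciart: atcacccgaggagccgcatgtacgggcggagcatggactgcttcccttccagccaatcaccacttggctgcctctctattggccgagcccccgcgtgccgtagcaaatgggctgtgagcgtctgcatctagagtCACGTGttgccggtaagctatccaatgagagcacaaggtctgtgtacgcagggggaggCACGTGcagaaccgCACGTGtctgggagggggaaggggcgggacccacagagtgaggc
Ciart has 3 E-boxes in this window, Per1 has 1 here and 0 before its other listed start (chr11:69099902-69100151), and these letters are not in the Noct window. Among other clock genes given below as lower with TAC, Klf15 has 2, and Dbp, Nr1d2 and Tsc22d3 have 0 in each listed window. No window was matched for Per2, which is also given below as lower. The motif reads the same on both strands. It stood in at least 1 listed window of 7 of 16 clock output genes and 4 of 13 core clock genes that matched the RefSeq table. Per1 and Ciart count in both. Taken by single window, 6.02% of 32851 promoters had it. The measures are unlike, since a gene with several listed starts has more windows in which to match. A match of letters is a description of the sequence and shows no binding.

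Core clock genes leaned lower with TAC in vector hearts. Of 18 members tested 5 were lower and 1 was higher at an unadjusted p under 0.05, against 3.66% and 3.39% of all genes. None passed after adjustment over all genes. The median log2 fold change was -0.11, against 0.00045 over all genes tested. Per1, a repressor of the loop, was at 150.4, 130.3, 123 and 128 CPM in sham and at 54.7, 61.3, 53.4 and 69.8 CPM in TAC hearts, with no overlap. Its log2 fold change was -1.15 (SE 0.19, edgeR adjusted p = 0.118). Per2, its partner, was at 21.001, 14.2, 24.2 and 18.3 CPM in sham and at 9.14, 3.798, 7.06 and 10.1 CPM in TAC hearts, again without overlap (log2 fold change -1.36, SE 0.31, edgeR adjusted p = 0.174). Nr1d2, a nuclear receptor that represses Arntl, had means of 104 ± 13.4 and 69.1 ± 9.36 CPM and did not overlap either. The fit of 8 hearts called Per1, Per2 and Nr1d2. Ciart, another repressor, was at 16.6, 12.8, 18.5 and 18.9 against 11.4, 7.94, 8.64 and 15.9 CPM, where TAC heart 4 lay inside the sham range. Arntl pointed the other way, with 9.07, 12.2, 9.99 and 7.44 CPM in sham and 15.7, 19.7, 15.8 and 12.8 CPM in TAC hearts, and did not pass (log2 fold change 0.72, SE 0.20, edgeR adjusted p = 0.303). The strand setting of the counting is not given in the sources used here, so the level of a gene that overlaps another on the opposite strand is uncertain. That holds for Arntl (Gm45355) and, among genes below, for Dbp (Sphk2), Hspa1a (Gm20481), Hspb6 (Lin37), Cx3cr1 (Gm33858), Nppa (Gm13054), Nmrk2 (Atcayos), Ccn2 (Gm15270), Atp2a2 (Gm43361), Ace (Gm11651), Corin (Gm20647), Aldh1l2 (D10Wsu102e) and Ackr4 (Acad11).

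Clock output genes followed the same direction. Of 17 tested, 10 were lower and 0 higher at an unadjusted p under 0.05, against 3.66% and 3.39% of all genes. Noct and Per1 were among the 10, and the list median was -0.45. Tsc22d3, a leucine zipper protein induced by glucocorticoids, was at 115, 102, 105 and 87.7 CPM in sham and at 75.6, 65.7, 60.8 and 65.7 CPM in TAC hearts, without overlap. Its log2 fold change of -0.61 (SE 0.13) did not pass in the fit of 14 hearts (edgeR adjusted p = 0.173) and did in the fit of 8. Dbp, a transcription factor that carries clock phase to its targets, was at 83.9, 81.5, 83.8 and 117 against 58.9, 41.3, 62.9 and 82.5 CPM, with TAC heart 4 inside the sham range (log2 fold change -0.58, edgeR adjusted p = 0.455). Klf15, a regulator of cardiac metabolism, had means of 49.5 ± 2.998 and 35.5 ± 5.39 CPM. Per1 and Ciart stand in both clock lists.

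**Figure D1:**
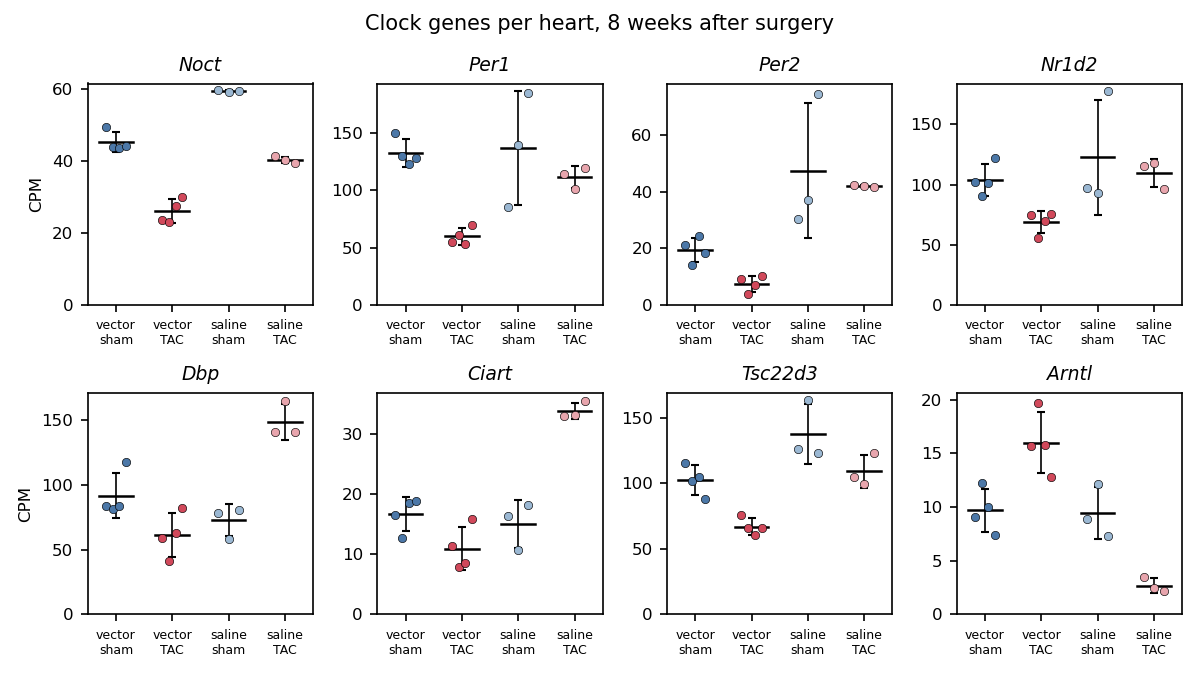
CPM per heart (y axis) of 8 clock genes in the 4 groups (x axis); points are hearts, bars are mean ± SD. In vector hearts Noct, Per1, Per2, Nr1d2 and Tsc22d3 had no overlap between TAC and sham, while Arntl was at 12.8 to 19.7 CPM in vector TAC hearts and at 2.17 to 3.45 CPM in saline TAC hearts.

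Arntl was the only gene that passed the test of whether the overload difference depended on the vector (interaction log2 2.54, SE 0.32, edgeR adjusted p = 0.0299, 0.00635% of 15745 genes called). In saline hearts it was at 8.92, 12.1 and 7.33 CPM after sham surgery and at 3.45, 2.42 and 2.17 CPM after TAC, and it fell there (log2 fold change -1.82, SE 0.25, edgeR adjusted p = 0.0205). Vector TAC hearts were thus the highest of the 4 groups for Arntl and saline TAC hearts the lowest, with no overlap between any vector TAC heart and any other heart. The size stayed between 2.32 and 2.76 over the alternatives, and the adjusted p ran from 7.38e-09 in DESeq2 to 0.553 with all 30 samples. The call was lost on leaving out vector sham heart 1, 3 or 4, vector TAC heart 1, 2 or 3, saline sham heart 1 or 2, or saline TAC heart 2 or 3 (0.0543 to 0.188). An atrial RNA term also lost it (edgeR adjusted p = 0.0666). So did leaving out vector sham heart 2 and vector TAC heart 3 together (0.103), an alternative chosen after seeing the data.

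No other clock gene passed the interaction test. Per1 was at 85.7 to 185 CPM in saline sham and 101 to 120 CPM in saline TAC hearts. Per2 was at 30.4 to 74.7 and 41.8 to 42.4 CPM there, above every vector heart. Both overlapped between the saline groups (interaction log2 -0.86 and -1.19, edgeR adjusted p = 0.688 for each). Without saline sham heart 3 their saline log2 fold changes were -0.01 and 0.32. Npas2, which can stand in for Clock, was at 3.09 to 5.63 and 4.08 to 8.63 CPM in vector sham and TAC hearts but at 4.11 to 5.700 and 1.69 to 1.96 CPM in the saline groups (interaction log2 2.002, edgeR adjusted p = 0.424). Ciart ran opposite to Arntl, at 10.7 to 18.3 CPM in saline sham and 33.03 to 35.5 CPM in saline TAC hearts (interaction log2 -1.77, edgeR adjusted p = 0.321). Dbp was likewise at 58.3 to 80.8 CPM in saline sham and at 141 to 165 CPM in saline TAC hearts (interaction log2 -1.61, edgeR adjusted p = 0.321). Among the 18 core clock genes the interaction had an unadjusted p under 0.05 in 3 higher and 5 lower, against 4.54% and 2.41% of all genes. Without saline sham heart 3 these were 3 and 7, against 2.92% and 4.21%. The labels tie no hour of collection to any group, so an effect of that hour and of treatment cannot be told apart.

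Of 24 protein folding and heat shock genes tested, 6 were lower with TAC and 1 was higher at an unadjusted p under 0.05. Over all genes the shares were 3.66% and 3.39%. None of the 24 passed, and the list median was -0.16. Hspa1a, the stress-inducible HSP70, was at 37.3, 135, 209.9 and 106 CPM in sham and at 18.6, 16.98, 3.15 and 17.5 CPM in TAC hearts. No TAC heart reached the lowest sham heart, and TAC heart 3 was the lowest by far. The log2 fold change was -3.11 (SE 0.63, edgeR adjusted p = 0.160). Its near-identical copy Hspa1b, whose reads cannot be firmly parted from those of Hspa1a, had means of 168 ± 107 and 17.1 ± 9.08 CPM. Dnajb1, the HSP40 partner of HSP70, was at 82.7, 113, 152 and 99.3 against 47.6, 44.7, 27.8 and 46.00 CPM without overlap (log2 fold change -1.43, SE 0.26, edgeR adjusted p = 0.132). Dnaja1, a related cochaperone that overlaps Smu1 on the other strand, was at 205, 240.3, 307 and 203 against 126, 113, 74.8 and 117 CPM, again without overlap (log2 fold change -1.15, edgeR adjusted p = 0.136). These 4 genes were the list's calls in the fit of 8 hearts, all lower, against 0.604% of all genes called lower there. Hspb6, a small heat shock protein of muscle, went the other way with means of 719.9 ± 101 and 1216 ± 312 CPM. In saline hearts Hspa1a had the same direction, at 64.5 to 219 CPM after sham surgery and 10.9 to 35.3 CPM after TAC (interaction log2 -0.92, SE 0.90, edgeR adjusted p = 0.746). Over the list the saline median was -0.29, with 8 lower and 2 higher at an unadjusted p under 0.05 (1885 and 1023 of 15745 genes). The interaction had 0 members at that level. Without saline sham heart 3 the saline median was -0.52, with 17 lower and 2 higher (1087 and 1180 of all genes). The interaction then had 8 higher and 0 lower, against 2.92% and 4.21% of all genes.

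Early response genes, which switch on within minutes of a stimulus, were also lower in the TAC hearts. Of 22 tested, 9 were lower and 0 higher at an unadjusted p under 0.05, against 3.66% and 3.39% of all genes. None passed, and the list median was -0.62. Nr4a2, an orphan nuclear receptor, was at 14.4, 19.1, 10.05 and 9.199 CPM in sham and at 1.997, 2.76, 4.29 and 3.31 CPM in TAC hearts without overlap (log2 fold change -2.098, SE 0.46, edgeR adjusted p = 0.174). Its relatives Nr4a1 and Nr4a3 had means of 205 ± 39.9 against 108 ± 9.78 CPM and of 38.1 ± 10.01 against 16.95 ± 3.41 CPM. Fosl2, a member of the AP-1 transcription factor, was at 120.0, 114, 113 and 85.8 against 56.6, 66.8, 51.3 and 59.4 CPM. None of these 4 genes overlapped between the groups. In all, 7 of the 22 were lower without overlap, against 5.79% of all genes. The fit of 8 hearts called all 4, where 0.604% of all genes were called lower. The fit without saline sham heart 3 called 1, Nr4a2, against 0.402%. Fos and Egr1 had log2 fold changes of -1.05 and -1.595 (edgeR adjusted p = 0.487 and 0.489). In saline hearts the sham group itself was spread, for Fosl2 from 37.6 to 101 CPM. Sik1, a kinase of the salt-inducible family that answers cyclic AMP and stands in none of the lists, was at 149, 161, 169 and 148 CPM in vector sham and at 81.8, 82.2, 70.3 and 82.5 CPM in vector TAC hearts. Its log2 fold change of -0.99 (SE 0.19) did not pass in the fit of 14 hearts (edgeR adjusted p = 0.136).

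Of 22 inflammation genes tested, 5 were lower with TAC and 1 was higher at an unadjusted p under 0.05, and none passed. Of all genes 3.66% were lower and 3.39% higher at that level. The list median was -0.29, and it was -0.06 without vector sham heart 1 and -0.46 without vector sham heart 4. Cxcl1, a chemokine that draws neutrophils, was at 7.202, 4.53, 7.89 and 1.997 CPM in sham and at 0.999, 1.27, 1.07 and 1.199 CPM in TAC hearts. Ccl7, which draws monocytes, was at 17.5, 3.67, 6.83 and 2.78 against 1.498, 0.863, 1.39 and 1.73 CPM. Neither overlapped and neither passed (log2 fold changes -2.25 and -2.49, edgeR adjusted p = 0.173 and 0.174). Ccrl2, a chemerin-binding receptor that stands in none of the lists, was at 23.4, 22.7, 20.4 and 20.3 against 11.3, 9.61, 12.04 and 13.9 CPM (log2 fold change -0.89, edgeR adjusted p = 0.132), while the saline groups were at 8.69 to 15.99 and 14.6 to 15.7 CPM. Cx3cr1, the fractalkine receptor of monocytes, stood higher with means of 4.48 ± 0.427 and 8.79 ± 3.29 CPM. The summed macrophage markers ranged from 171 to 285 CPM in sham and from 186 to 220.2 CPM in TAC hearts.

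**Figure D2:**
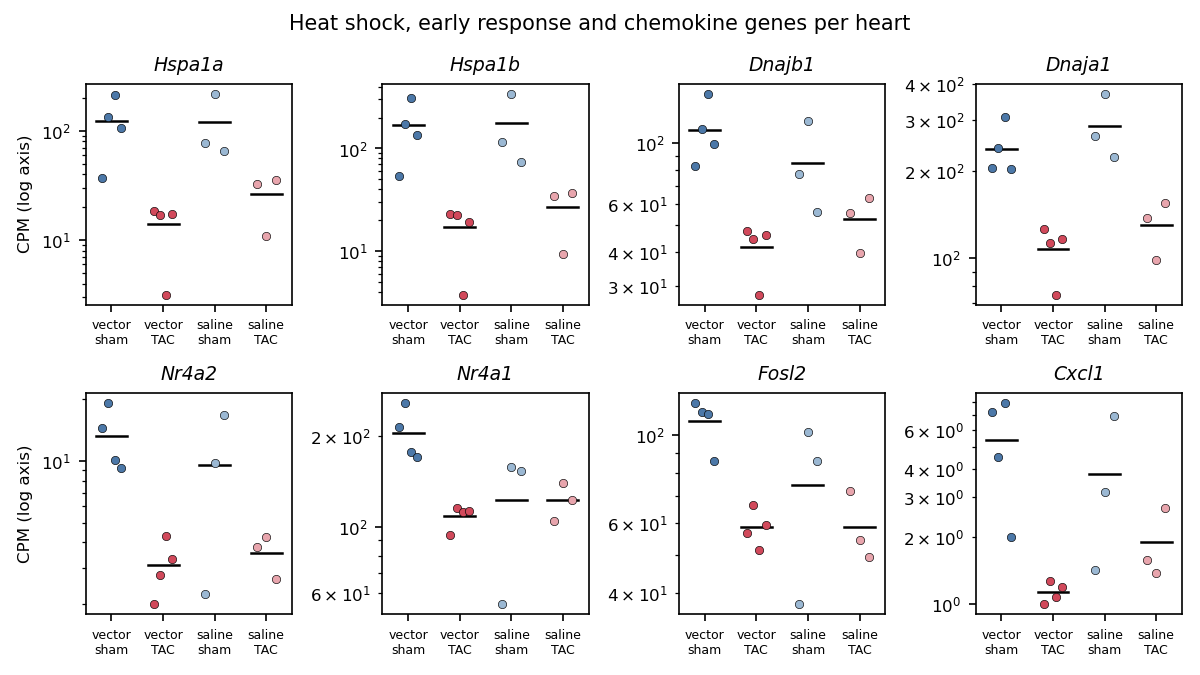
CPM per heart on log y axes of 4 heat shock genes, 3 early response genes and the chemokine gene Cxcl1 in the 4 groups (x axis); points are hearts and lines are means. In all 8 panels the 4 vector TAC hearts lie below the 4 vector sham hearts, while in the saline groups Dnajb1, Nr4a2, Nr4a1, Fosl2 and Cxcl1 overlap.

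Genes of the hypertrophic program were higher in the overloaded vector hearts by values that did not pass. Of 21 hypertrophy and fetal genes tested, 11 were higher and 0 lower at an unadjusted p under 0.05, and 8 had no overlap and were higher, against 4.9% of all genes. The list median was 0.53. Acta1, skeletal muscle actin and a standard mark of overload, was at 44.9, 923, 263 and 141 CPM in sham and at 3214, 8666, 1811 and 2688 CPM in TAC hearts. The hearts spread widely within both groups without overlapping, and the log2 fold change was 3.58 with an SE of 0.80 (edgeR adjusted p = 0.174). Myh7, the slow myosin heavy chain, was at 510.3, 784, 476 and 516 against 2730.5, 2000.1, 797 and 937 CPM, where TAC hearts 1 and 2 were far above the other TAC hearts (log2 fold change 1.499, SE 0.37, edgeR adjusted p = 0.243). Antisense transcripts, Mhrt among them, overlap Myh7. Myh6, the fast adult form, was at 30286, 31511, 30855 and 33913 against 23323, 22609.5, 28535 and 26935 CPM without overlap (log2 fold change -0.32, edgeR adjusted p = 0.919).

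Ankrd1, a titin-linked sensor of stretch, was at 1188, 2494, 1103 and 1249.8 CPM in sham and at 5022, 6994, 2431 and 3412 CPM in TAC hearts, where sham heart 2 lay above TAC heart 3 (log2 fold change 1.57, SE 0.40, edgeR adjusted p = 0.258). Nppb, the B-type natriuretic peptide, was at 55.1, 209.5, 148 and 108 against 799, 740.5, 264 and 339 CPM without overlap (log2 fold change 2.04, SE 0.66, edgeR adjusted p = 0.430). Nppa, the atrial peptide, was at 206, 1884, 109 and 16.2 against 943, 882, 992 and 213 CPM and its groups overlapped (edgeR adjusted p = 0.996). The sham heart highest in Nppa was also the sham heart highest in Myl7, and without that heart the median of the hypertrophy list was 0.92. Nmrk2, a muscle kinase that makes NAD, was tighter than the classic marks, at 8.06, 12.00, 10.5 and 11.1 against 18.6, 16.7, 18.7 and 20.7 CPM, and was the list's 1 call in the fit of 8 hearts. Rcan1, a target and brake of calcineurin, had means of 89.3 ± 15.7 and 205 ± 96.8 CPM.

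Matrix genes were higher in 17 of 40 members and lower in 1, Thbs2, at an unadjusted p under 0.05. Of all genes 3.39% were higher and 3.66% lower at that level. The list median was 0.42, and no member passed. Col8a1, a short-chain collagen, was at 21.1, 25.8, 19.9 and 16.9 CPM in sham and at 58.6, 93.9, 31.5 and 40.2 CPM in TAC hearts without overlap (log2 fold change 1.42, SE 0.29, edgeR adjusted p = 0.157). Cilp, a matrix protein of activated fibroblasts, was at 24.1, 35.2, 8.41 and 6.72 against 90.9, 143, 49.9 and 42.9 CPM, with TAC heart 2 highest (log2 fold change 2.13, SE 0.51, edgeR adjusted p = 0.221). Loxl1, which crosslinks elastin, had means of 41.98 ± 4.84 and 66.8 ± 14.99 CPM, also without overlap. Postn, made by activated fibroblasts, was at 72.97, 76.00, 26.8 and 31.8 against 197, 230.0, 63.2 and 76.99 CPM and overlapped. The main fibrillar collagens overlapped, Col1a1 with means of 112 ± 24.1 and 166 ± 46.9 CPM and Col3a1 with 241 ± 45.3 and 297 ± 57.4 CPM. Summed fibroblast markers ranged from 526 to 1026 CPM in sham and from 696 to 835 CPM in TAC hearts, so the sham hearts spanned the TAC hearts.

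Among the matricellular CCN genes, Ccn5, known as an antifibrotic member, was at 12.5, 10.96, 7.54 and 8.29 CPM in sham and at 17.9, 32.7, 19.04 and 21.3 CPM in TAC hearts without overlap (log2 fold change 1.21, SE 0.22, edgeR adjusted p = 0.132). It rose in the saline hearts, from 7.56, 8.02 and 10.1 to 39.99, 25.7 and 35.9 CPM (log2 fold change 1.98, SE 0.26, edgeR adjusted p = 0.0205), and the difference between these changes did not pass (interaction log2 -0.77, edgeR adjusted p = 0.688). Ccn2, the profibrotic connective tissue growth factor, was at 86.7, 131, 56.3 and 51.6 against 227, 219, 82.1 and 123 CPM and overlapped. Ccn1 was at means of 91.9 ± 19.99 and 94.4 ± 26.9 CPM, and the sign of its log2 fold change of 0.04 turned with the fit. Of 5 members tested, 2 were higher at an unadjusted p under 0.05, with a median of 0.04. Of 23 genes of TGF-beta and Wnt signalling, 4 were higher and 2 lower at that level, against 3.39% and 3.66% of all genes. Their median was 0.05. The list was led by Gdf15, a stress-induced ligand, at 1.36, 2.51, 1.87 and 1.39 against 14.9, 12.03, 2.52 and 2.83 CPM (log2 fold change 2.18, edgeR adjusted p = 0.258).

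**Figure D3:**
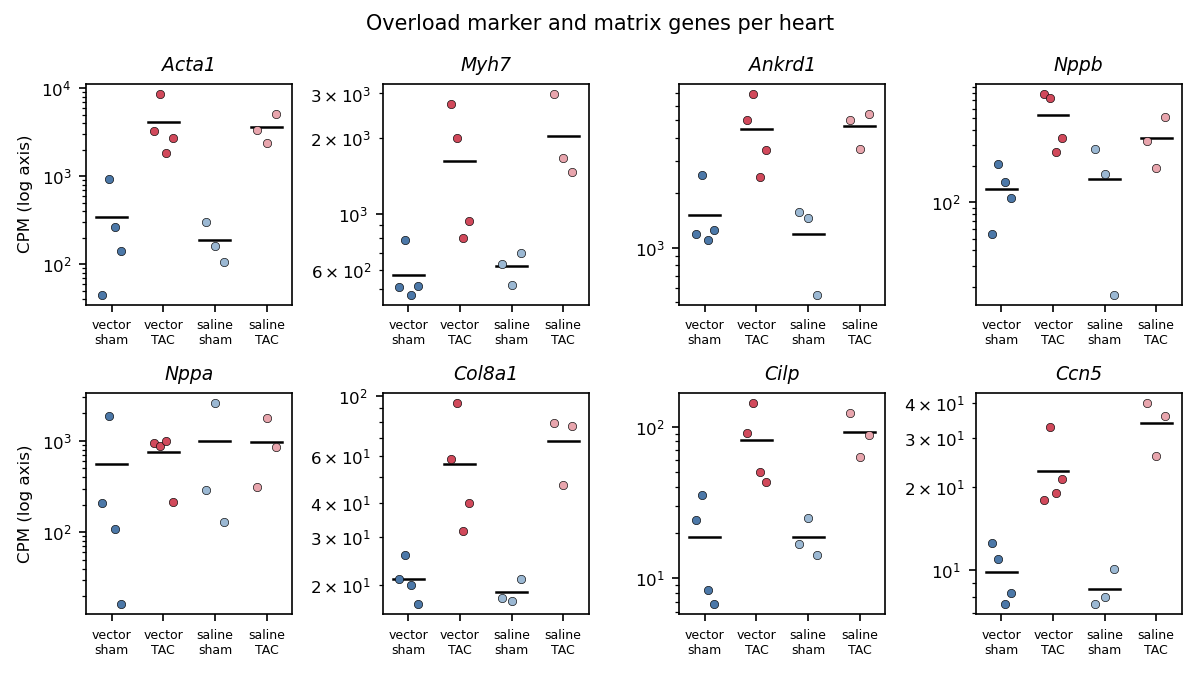
CPM per heart on log y axes of 5 overload markers and 3 matrix genes in the 4 groups (x axis); points are hearts and lines are means. Acta1, Myh7, Nppb, Col8a1, Cilp and Ccn5 have no overlap between vector sham and vector TAC hearts, and Nppa and Ankrd1 overlap.

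Fatty acid oxidation genes leaned lower in small steps. Of 30 tested, 29 had a negative log2 fold change, the median was -0.16, and 2 were lower at an unadjusted p under 0.05 with none that passed. Acot1, a thioesterase that frees fatty acids from coenzyme A, was at 12.7, 14.02, 14.4 and 19.97 CPM in sham and at 5.69, 2.36, 10.97 and 8.49 CPM in TAC hearts without overlap (log2 fold change -1.15, SE 0.42, edgeR adjusted p = 0.535). Slc27a1, a fatty acid transporter, was at 208, 229.7, 226 and 268 against 135, 136, 234 and 193 CPM and overlapped. Cpt1b, the muscle isoform, had means of 8.600 ± 1.18 and 7.53 ± 1.096 CPM, and another annotated gene overlaps it on the same strand, so its level is uncertain. In the saline hearts the list median was 0.29, and without saline sham heart 3 it was -0.09.

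Ppara, the nuclear receptor that drives fatty acid oxidation genes, was at 20.4, 13.5, 21.6 and 21.4 CPM in vector sham and at 11.6, 9.72, 11.2 and 11.6 CPM in vector TAC hearts. The groups did not overlap and sham heart 2 was the lowest of its group. The log2 fold change of -0.80 (SE 0.20) did not pass (edgeR adjusted p = 0.245), and Ppara was the list's 1 call in the fit of 8 hearts. In saline hearts it was at 14.3, 13.1 and 7.33 CPM after sham surgery and at 16.02, 13.4 and 12.6 CPM after TAC (interaction log2 -1.08, edgeR adjusted p = 0.688). Its coactivator Ppargc1a had means of 76.8 ± 9.295 and 61.7 ± 3.84 CPM. Of 19 PPAR and PGC-1 genes tested, 1 was lower and 0 higher at an unadjusted p under 0.05, with a median of -0.09 that was -0.06 without vector sham heart 3 or 4 and -0.05 without vector TAC heart 2.

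On the glucose side, Pfkp, the platelet form of phosphofructokinase, was at 48.5, 63.9, 56.3 and 52.2 CPM in sham and at 106, 116, 73.3 and 79.8 CPM in TAC hearts without overlap (log2 fold change 0.76, SE 0.17, edgeR adjusted p = 0.174). It overlaps Pitrm1 on the other strand. It was the 1 of 26 glycolysis genes with an unadjusted p under 0.05, and the list median was 0.02. That count is near the 3.39% of all genes that were higher at that level. Of 40 nuclear-encoded respiratory chain genes none had an unadjusted p under 0.05, and they lay between -0.27 and 0.14 with a median of -0.04. The 13 mitochondrially encoded genes had a median of -0.08, which was -0.03 without vector sham heart 4, -0.05 without vector TAC heart 2 and -0.12 without vector TAC heart 4. Of these genes 2 were higher at an unadjusted p under 0.05, mt-Co3 with means of 360.2 ± 147 and 744 ± 277 CPM and mt-Atp8 with 33.8 ± 13.1 and 100.3 ± 66.5 CPM. Both overlap mt-Atp6 on the same strand, and TAC heart 1 was far above the others for mt-Atp8.

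Calcium handling genes had 1 of 20 members at an unadjusted p under 0.05 in the fit of 14 hearts, Ryr2, the release channel of the sarcoplasmic reticulum. Ryr2 was at 1156, 1062, 1184 and 1348 CPM in sham and at 758, 784, 968 and 900.1 CPM in TAC hearts without overlap (log2 fold change -0.48, SE 0.18, edgeR adjusted p = 0.568). Atp2a2, the pump that refills that store, was at 14826, 14247, 16256 and 17062 against 11210.4, 11279.5, 13381 and 12297 CPM, also without overlap (log2 fold change -0.37, edgeR adjusted p = 0.964). In all, 6 of the 20 were lower without overlap, against 5.79% of all genes, and 2 were higher. The list median was -0.16, and it was -0.07 without vector sham heart 3, -0.10 without vector sham heart 4 and -0.09 without vector TAC heart 2. Saline sham heart 3 was at 1905 CPM of Atp2a2, against 10220.0 to 12590.1 CPM in the saline TAC hearts.

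Of 22 ion channel genes 20 had a negative log2 fold change and the median was -0.28, or -0.17 without vector sham heart 1, with 1 lower at an unadjusted p under 0.05. This gene, Kcnv2, a modifier subunit of potassium channels, was at 12.1, 11.6, 12.6 and 18.8 CPM in sham and at 6.09, 3.395, 8.89 and 9.21 CPM in TAC hearts without overlap (log2 fold change -0.997, edgeR adjusted p = 0.519). The saline values were similar, with means of 14.3 ± 6.94 CPM after sham surgery and 7.05 ± 2.82 CPM after TAC. Among 20 adrenergic and natriuretic signalling genes, Ace, which makes angiotensin II, was higher with means of 65.01 ± 9.44 and 95.97 ± 26.5 CPM, and Corin, the protease that activates the natriuretic peptides, lower with 183 ± 14.1 and 138 ± 21.7 CPM. Neither passed (edgeR adjusted p = 0.363 and 0.574), and the list median was -0.09, or -0.16 without vector sham heart 3 or vector TAC heart 3. Adra1b, an alpha-1 adrenergic receptor, was at 40.7, 44.7, 40.1 and 46.96 against 19.8, 16.3, 38.5 and 29.6 CPM without overlap (edgeR adjusted p = 0.774).

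Stress response genes had members on either side. Of 17 members of the integrated stress response and serine pathway tested, 3 were higher and 2 lower at an unadjusted p under 0.05, with a median of 0.04. Ddit3 (CHOP), a late transcription factor of this response, was tight within groups, at 17.5, 17.7, 17.1 and 17.2 CPM in sham and at 23.1, 23.2, 21.8 and 23.7 CPM in TAC hearts (log2 fold change 0.40, SE 0.11, edgeR adjusted p = 0.322). In saline hearts it ran from 27.8 to 41.8 CPM after sham surgery and from 25.96 to 26.5 CPM after TAC (interaction edgeR adjusted p = 0.688). It overlaps Mars on the other strand. Aldh1l2, a mitochondrial folate enzyme, was at 5.09, 6.74, 3.91 and 5.99 against 2.05, 0.921, 2.27 and 2.01 CPM without overlap (log2 fold change -1.58, edgeR adjusted p = 0.441). The fit of 8 hearts called both.

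Interferon genes were slightly higher in the TAC hearts with the vector. Of 25 tested, 5 were higher and 0 lower at an unadjusted p under 0.05, against 3.39% and 3.66% of all genes. A positive log2 fold change was found in 23, and the median was 0.27, or 0.41 without vector sham heart 2. Rsad2, the antiviral enzyme viperin, was at 15.9, 17.8, 22.1 and 18.8 CPM in sham and at 26.01, 28.4, 30.7 and 26.8 CPM in TAC hearts without overlap (log2 fold change 0.59, SE 0.26, edgeR adjusted p = 0.671). Ifit2 and Ifit3, which bind viral RNA, had means of 17.4 ± 3.05 against 23.6 ± 3.18 CPM and of 7.56 ± 1.203 against 11.1 ± 2.05 CPM, and both overlapped. Against saline, 10 members had a higher interaction at an unadjusted p under 0.05 (4.54% of all genes), but without saline sham heart 3 only 1 did (2.92%). That heart was the highest of the saline sham hearts for Stat2, at 114 CPM against 24.1 and 27.6 CPM.

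Of the remaining lists, the vascular one held the clearest member. Aplnr, the endothelial receptor of apelin, was at 28.4, 21.2, 25.6 and 32.4 CPM in sham and at 60.96, 51.9, 47.1 and 46.5 CPM in TAC hearts without overlap (log2 fold change 0.94, SE 0.22, edgeR adjusted p = 0.218). Sox18, an endothelial transcription factor that stands in none of the lists, was at 31.2, 24.9, 28.4 and 30.3 against 45.7, 42.99, 54.8 and 46.9 CPM (log2 fold change 0.73, edgeR adjusted p = 0.136). The summed endothelial markers, none of which had an unadjusted p under 0.05, were 869 to 968 CPM in sham and 1015 to 1039 CPM in TAC hearts, so they too did not overlap; their part in these genes was not tested. Of 19 angiogenesis genes 2 were higher and 1 lower at an unadjusted p under 0.05, with a median of 0.11 that was 0.06 without vector sham heart 2 and 0.18 without vector sham heart 3. Of 26 antioxidant genes none had an unadjusted p under 0.05 (median -0.0039). Elovl5, which lengthens fatty acids, was the 1 lower of 19 sterol and fatty acid synthesis genes (median -0.018), and Aurka, a mitotic kinase, the 1 higher of 20 proliferation genes (median 0.05). These 2 counts stand near the shares over all genes, 3.66% lower and 3.39% higher at an unadjusted p under 0.05.

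Of the 16 genes named for the smallest p with no overlap and a mean of at least 5 CPM, the 7 not yet described stand in none of the lists. Aqp8, a water and peroxide channel, was at 3.63, 5.33, 5.37 and 3.69 CPM in sham and at 15.6, 29.7, 12.99 and 12.5 CPM in TAC hearts (log2 fold change 1.97, SE 0.30, edgeR adjusted p = 0.0833). It was as far apart in saline hearts, at 3.67, 3.15 and 1.91 against 13.97, 9.84 and 17.1 CPM. Rasl11b, a small GTPase of the Ras type, was at 12.4, 20.7, 13.6 and 19.8 against 39.1, 42.8, 40.1 and 33.5 CPM (log2 fold change 1.23, edgeR adjusted p = 0.0833). Dact3, an inhibitor of Wnt signalling, Ulk3, a kinase of the autophagy and Hedgehog pathways, and Arhgap9, a GTPase-activating protein, were higher, with log2 fold changes of 0.65, 0.59 and 0.81. Zbtb10, a zinc finger repressor, and A330023F24Rik, the host transcript of miR-29b-2 and miR-29c, were lower, with -0.52 and -0.93. Their edgeR adjusted p was 0.132 to 0.136, and all 7 genes passed in the fit of the 8 vector hearts. They were picked by their values in these same hearts, so passing there is no separate support. Arhgap9 overlaps Gli1 and A330023F24Rik overlaps Cd46 on the other strand.

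**Figure D4:**
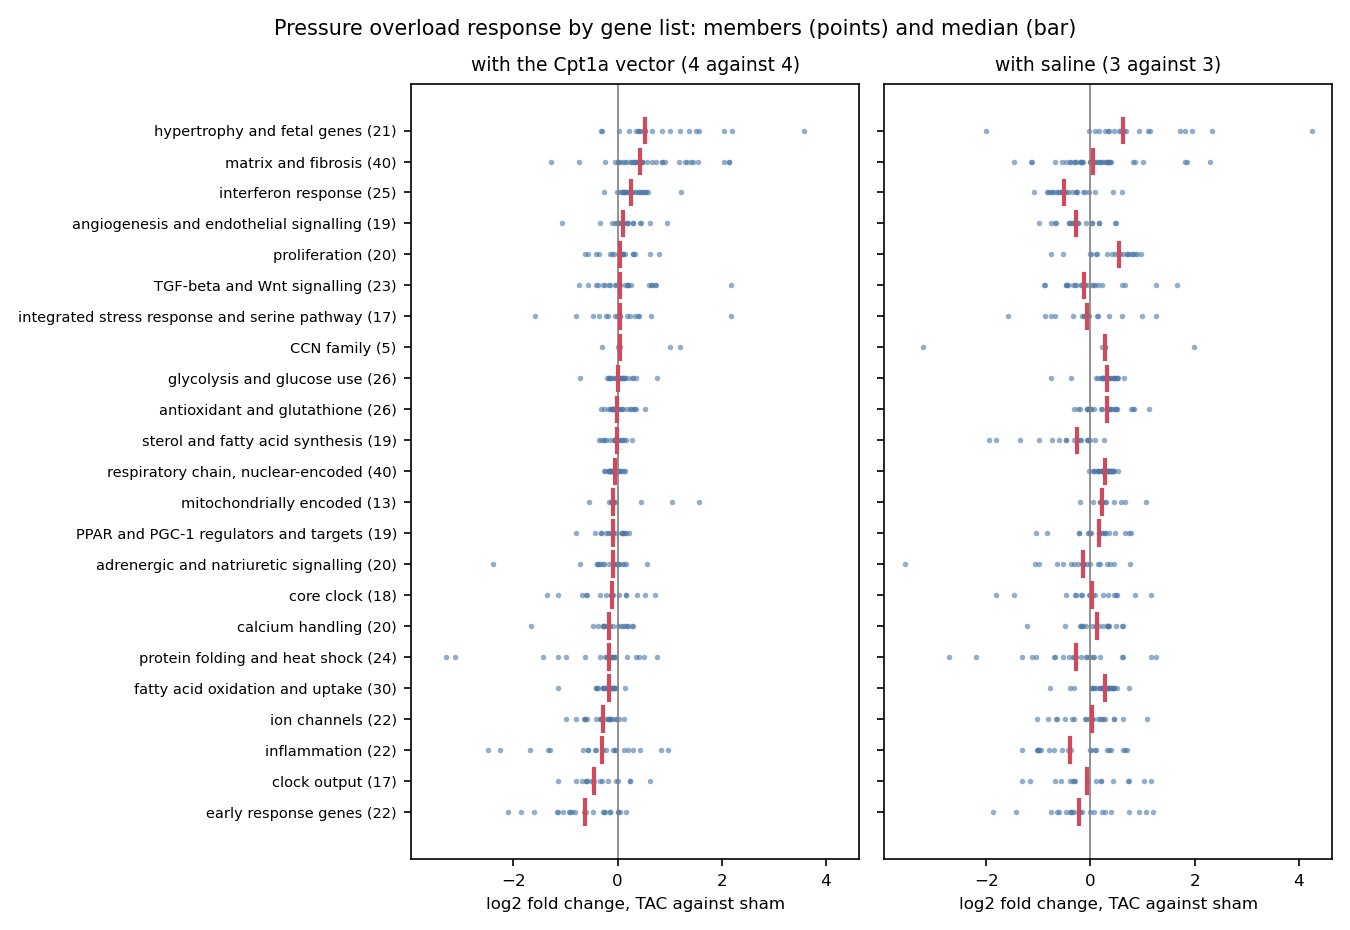
Log2 fold change of TAC against sham (x axis) for each tested member (points) of 23 gene lists (y axis, members tested in brackets), with the list median as a bar, in vector hearts (left) and saline hearts (right). With the vector the hypertrophy list has the highest median, 0.53, and the early response list the lowest, -0.62.

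Set side by side, the overload differences with the vector and with saline pointed the same way more often among the genes that stood out. These comparisons share no heart, though they share the spread estimate of 1 fit. Across 15745 genes the log2 fold changes had Pearson r = 0.39 and a Spearman correlation of 0.26, as a description across genes that are not independent, and 58.7% had the same sign. Without saline sham heart 3 these were 0.50, 0.38 and 63.2%. Of the 1110 genes at an unadjusted p under 0.05 with the vector, 79.8% had the same sign with saline. In saline hearts 5 genes passed (0.0318% of those tested). Ccn5 and Ackr4, a scavenger of chemokines, rose there (0.0127%), and Arntl, Nrgn and Spon2 fell (0.0191%). None of the 5 passed on leaving out saline sham heart 2 or saline TAC heart 1 or 3, and 1796 genes passed without saline sham heart 1. Ackr4 was at 2.52, 3.98, 2.98 and 2.300 against 5.89, 7.02, 4.73 and 5.08 CPM with the vector (log2 fold change 0.95, edgeR adjusted p = 0.218). Spon2, a matrix protein, was at 6.68, 8.69 and 6.06 against 1.46, 1.900 and 1.27 CPM with saline and at 5.49, 8.88, 3.797 and 8.17 against 8.39, 9.21, 7.57 and 7.53 CPM with the vector (interaction log2 2.52, edgeR adjusted p = 0.0874). Nrgn, a calmodulin-binding protein, had vector means of 6.45 ± 0.777 and 5.41 ± 0.824 CPM.

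**Figure D5:**
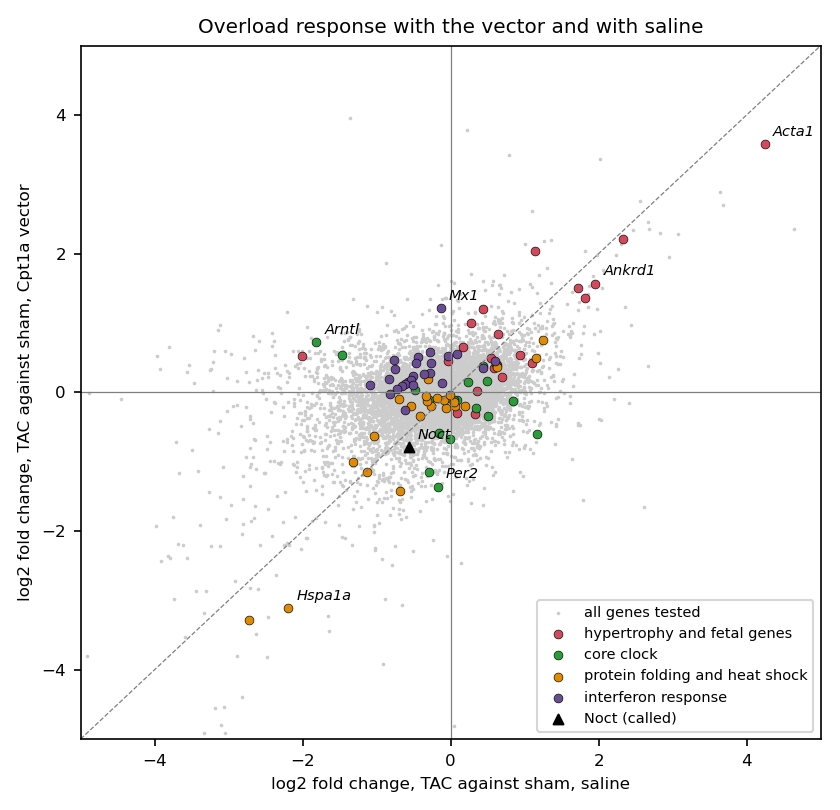
Log2 fold change of TAC against sham in saline hearts (x axis) and in vector hearts (y axis) for the genes tested (grey), 4 gene lists (colours) and Noct (triangle); the dashed line marks equal change, and 6 genes lie outside the plotted range of -5 to 5. Noct is at -0.56 with saline and -0.79 with the vector, and Arntl is at -1.82 with saline and 0.72 with the vector.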

How the data were processed

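Per the labels' protocols, poly(A) RNA of whole-heart samples was made into directional libraries and sequenced in 100 bp pairs. Atrial RNA was nonetheless uneven, with Myl7 from 0.115 to 911 CPM in the vector hearts. The deposited values are raw counts per gene; HISAT2 2.1.0, featureCounts, Subread 1.5.1 and GRCm38 are named in the submitters' processing notes, without their roles, and the strand setting and annotation release are not given in the sources used here. Gene symbols and coordinates came from GENCODE M21 (55141 of 55487 IDs matched). Counts of the 14 vector and saline hearts were filtered (filterByExpr), TMM-scaled and fitted with 1 mean per group in edgeR 4.0.16 (R 4.3.3, quasi-likelihood test, Benjamini-Hochberg adjustment over 15745 genes); SE is the log2 fold change divided by the square root of F. CPM and log2 fold changes were computed here. The test was tried on simulated data with known changes. That simulation took each gene's spread from the cohort's trend and held no outlying heart, and no result here rests on it. Alternatives were DESeq2 1.42.0, limma 3.58.1 voom with sample weights, RLE scaling, other filters, the replicate block, all 30 samples, the 8 vector hearts alone, an atrial RNA term (Myl7, Myl4, Sln) and samples left out. Genes named are Cpt1a, all calls, the 8 rises and 8 falls with the smallest p among genes without overlap and with a mean of at least 5 CPM, the top 3 of each of 23 lists and the usual overload markers; other members named were chosen after their values were seen. List members too low to be tested were Ccn6, Fgf21, Slc7a11, Fosl1, Il6, Ccl3, Ccl4 and Ccl5, beside an item that is not reported here. Members and lists were chosen with earlier results of these data known.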

Additional observations from a re-analysis of the deposited data

Results flagged for a closer look

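In 206 groups of 4 hearts examined (the named genes, library values and marker sums), 16 had 1 heart whose distance to the nearest of the others exceeded Dixon's 95% critical share of the group's range, 7.77% where chance gives about 5%. Marker sums under 1 CPM in all 8 hearts were left out, a limit set after such sums had been seen. In vector sham heart 2 this held for Myh7 (ratio 0.870), Ankrd1 (0.894) and Nppa (0.898), where it was highest, and for Ppara (0.862), where it was lowest; this heart also had the most Myl7 of the vector hearts. In vector TAC heart 3, Dnajb1 (0.852), Sik1 (0.941) and Hspa1a (0.896) were lowest and the atrial marker sum highest (0.989, 1223 CPM against 46.0 to 58.4 CPM in the others). In vector sham heart 1, Noct (0.896) and the conduction marker sum (0.906) were highest. In vector sham heart 4, Kcnv2 (0.856) was highest and Mcm6 (0.867) lowest, and in vector sham heart 3 Cox6c (0.847) was highest. Vector TAC hearts 1, 2 and 4 held mt-Atp8 (highest, 0.838), A330023F24Rik (lowest, 0.855) and Nppa (lowest, 0.859). Apart from these, the TAC change of Arntl differed between vector and saline hearts by a log2 interaction of 2.54.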

How the results depend on the processing

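The number of calls with the vector, 1 as reported, was 117 in DESeq2, 367 in limma voom and 29 with no filter on low counts. It was 2 with all 30 samples and 143 in the 8 vector hearts alone. With an atrial RNA term, with the replicate block or without vector sham heart 2 and vector TAC heart 3 it was 0. Leaving out 1 vector heart gave 0 to 2, and leaving out saline sham heart 3 gave 111. The other saline hearts were not left out for this count. Where a count was 0, 982 (block), 797 (atrial term) and 1087 (those 2 hearts left out) genes had an unadjusted p under 0.05. In the 8 vector hearts alone, 143 became 18 with the atrial term, 410 with the replicate block, and 25 to 424 with 1 heart left out; Noct passed in each of these fits. Saline calls, 5 as reported, were 370 (DESeq2), 252 (voom), 112 (no filter), 11 (mean of at least 5 CPM), 2 (block), 16 (all 30 samples), 0 (atrial term), 0 (only the groups compared) and 0 to 1796 with 1 heart left out, the highest without saline sham heart 1. At 0 saline calls, 1638 (atrial term) and 934 (only the groups compared) genes had an unadjusted p under 0.05. Interaction calls, 1 as reported, were 16 (DESeq2), 13 (voom), 5 (no filter), 2 (block), 0 (all 30 samples), 0 (atrial term), 0 (without those 2 hearts) and 0 to 1 with 1 heart left out. In the fits of all 30 samples, of the atrial term and without those 2 hearts, 1428, 963 and 798 genes had an unadjusted interaction p under 0.05. Deviations of same-numbered hearts had correlations of -0.24 to 0.19 with the vector and -0.11 to 0.29 with saline. These few values cannot settle whether replicate numbers pair the hearts, and the labels do not say. Of the named genes, only Ccn1 changed sign in these fits, to -0.0065 (voom) and -0.018 (atrial term), and it ran from -0.17 to 0.15 with 1 heart left out. List medians near 0 changed sign in at least 1 fit for the antioxidant, glycolysis, PPAR, sterol, stress response, respiratory, CCN, proliferation and TGF-beta lists. Scaling by RLE changed no call count. The causes were not tested. With 4 hearts a group, differences under the spread between hearts were not detectable here.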
